A study of Mus musculus with 9 samples.

Results

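Mouse embryonic stem (ES) cells carrying a Nanog construct were compared with cells carrying enhanced green fluorescent protein (EGFP) after a culture that lacked leukaemia inhibitory factor (LIF) and held retinoic acid (RA) at 5 µM. The series holds 9 RNA sequencing libraries of RF8 ES cells, 1 for each of 3 transfectants (EGFP, wild-type Nanog and the Nanog mutant L122A) in each of 3 cultures, and 3 of the 9 form the comparison described here. All transfectants were kept in a routine medium of serum, LIF (1000 units per ml) and puromycin. This medium is the LIF culture, and the remaining culture lacked both LIF and RA. The labels give neither the promoter of the constructs, nor the time in RA, nor whether a transfectant is a clone or a pool, and each culture of a transfectant was sequenced once.

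LIF holds mouse ES cells in self-renewal through STAT3. RA enters the cell, is carried by CRABP proteins and binds RAR and RXR receptors, which switch on the 3′ Hox genes and the enzymes that degrade RA, and ES cells leave pluripotency. NANOG is a homeodomain transcription factor that, with OCT4 (Pou5f1) and SOX2, maintains the pluripotent state, and raised Nanog is known to let ES cells self-renew without LIF.

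The genes described are those at least 2-fold apart in the same direction in both Nanog libraries against EGFP, where the higher library of each pair held 5 CPM or more (CPM is a gene's reads scaled by library size). By this rule 297 genes were higher and 653 lower in both Nanog libraries, of 10284 genes that reached 5 CPM in both pairs and of 33495 in the file. These are 2.89% and 6.35% of the genes that could pass, the background for the counts of list members below. A gene under 5 CPM in EGFP is measured only if both Nanog libraries are above it, so it cannot be lower. Against EGFP, the WT library alone had 457 genes higher (4.37% of 10457) and 738 lower (7.06%). The L122A library alone had 848 higher (8.03% of 10562) and 1214 lower (11.5%). Both Nanog comparisons share the single EGFP library, so anything particular to that library enters both. With total counts in place of scaling factors, 447 were higher and 560 lower in both. Only 4 genes stood 2-fold apart in opposite directions: Pth1r, Enpp1 and Gjb2 were higher in WT and lower in L122A, and Ly6a, a surface antigen, was 9.46 CPM in EGFP cells, 4.19 in WT and 37.1 in L122A.

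With 1 library per transfectant, a fold alone has no replicate check. A test was possible only by treating WT and L122A as the 2 libraries of a Nanog class in each culture, with the EGFP RA library assumed to vary like them (edgeR quasi-likelihood test over 13996 genes, 3 residual degrees of freedom). Its spread is the distance between WT and L122A, so it includes any effect of the changed residue, and its p-values say nothing of repeated transfections. At a Benjamini-Hochberg adjusted p below 0.05, 28 genes were higher (0.2%) and 96 lower (0.686%) in the Nanog class with RA. Of these, 24 and 95 are among the 297 and 653. Rose and fell are used below for these 124 genes alone. An unadjusted p below 0.05 was reached by 2131 of the 13996 genes, the background for the unadjusted counts per list below. The counts depended strongly on the fit: without the WT LIF library, or without the L122A LIF library, 4 rose and 15 fell, with total counts in place of scaling factors 5 and 10, and with the 3 RA libraries alone none passed (2066 at an unadjusted p below 0.05).

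**Figure D1:**
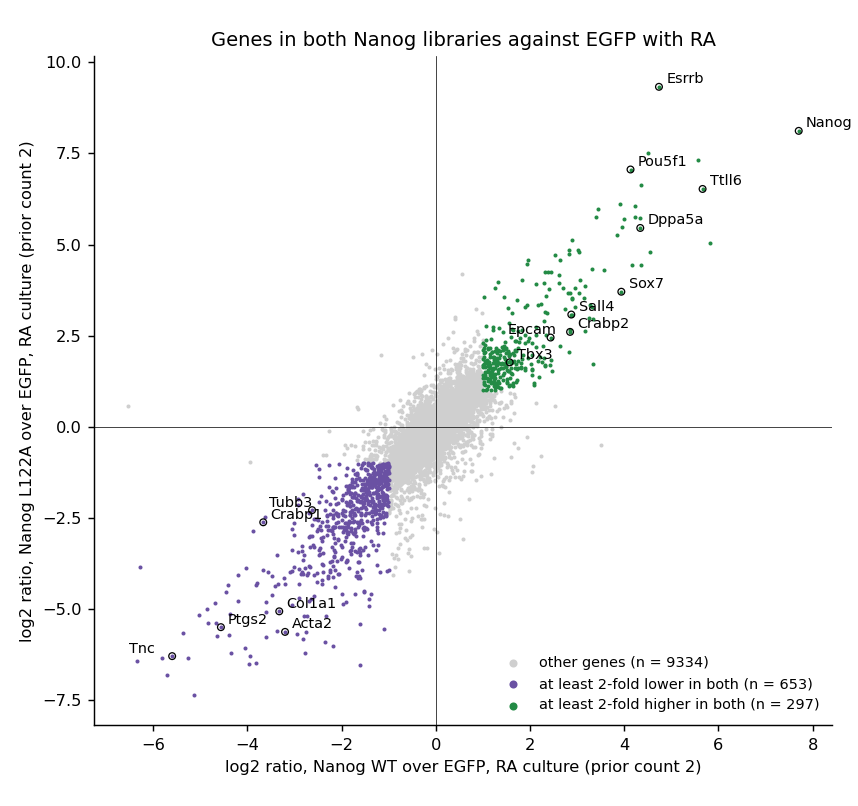
Each point is 1 gene that reached 5 CPM in both pairs; the x axis is the log2 ratio of WT over EGFP and the y axis that of L122A over EGFP, both with RA. The 297 genes higher in both lie at the upper right and the 653 lower in both at the lower left, with Nanog farthest to the right and Tnc among the lowest.

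The library depth was similar, with 28714988 gene counts in EGFP cells, 26144980 in WT and 28421480 in L122A with RA, and from 24166395 to 28714988 over all 9. The nuclear ribosomal RNA share was from 4.32% to 4.75% in the RA libraries and from 7.90% to 11.9% in the others. Mitochondrial genes held 12.6%, 15.3% and 12.04% of counts in the EGFP, WT and L122A libraries with RA. Scaling by total counts alone moved the median log2 ratio of all genes up by 0.13 in WT and 0.16 in L122A.

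Nanog itself (chr6:122657507-122664651 in mm9, + strand) was 0.871 CPM in EGFP cells, 195 in WT and 258 in L122A with RA, from 28, 6224 and 9219 counts. It was 223 times higher in WT (exact 95% Poisson interval 154 to 337, counting error only) and 297 times higher in L122A (205 to 447) than in EGFP. The Nanog class was higher by 8.02 on the log2 scale (SE 0.45, edgeR adjusted p = 0.000412). With LIF the order was the other way, 384 CPM in EGFP cells, 222 in WT and 239 in L122A. The Nanog libraries thus held Nanog RNA at about the same level with RA as with LIF, while in the EGFP library it was near 0. Counts per gene do not separate RNA of the construct from that of the chromosomal gene.

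Of 14 listed naive pluripotency factors, 8 reached 5 CPM in both pairs. At least 2-fold higher in both were 6 of these (Esrrb, Tfcp2l1, Tbx3, Zfp42, Fbxo15 and Dppa5a), where 2.89% of all measured genes were. None was lower. None passed the edgeR test, with 7 of the 14 at an unadjusted p below 0.05, while DESeq2 called 6 higher and limma 2. The median log2 ratio of the 8 was 1.95 in WT and 4.53 in L122A, against -0.07 in both for all genes that reached 5 CPM. A gene near 0 in EGFP reaches 5 CPM only by being higher in Nanog, so these medians describe the measured members and support nothing by themselves.

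Esrrb, an orphan nuclear receptor and a known NANOG target, was 0.156 CPM in EGFP cells, 5.75 in WT and 138 in L122A with RA, beside 115, 126 and 187 with LIF. The L122A library with RA thus stood near its LIF level, while WT stood far below it. Tfcp2l1, a naive factor downstream of LIF, was 3.86, 15.0 and 87.3 CPM in the same order. Zfp42, the ES cell marker also called Rex1, was 6.19, 24.3 and 149 CPM. Both were ordered EGFP, WT, L122A. Dppa5a, an RNA-binding protein of pluripotent cells, was 2.74, 56.7 and 123 CPM. Its class difference was 5.03 on the log2 scale (SE 0.80, edgeR adjusted p = 0.0504), just outside the threshold. Tbx3, a T-box factor of naive cells and of early endoderm, was 83.3 CPM in EGFP cells, 247 in WT and 284 in L122A with RA, above 22.1, 37.5 and 53.3 with LIF. Klf4, a naive factor downstream of STAT3, was 19.3, 18.4 and 24.3 CPM and so did not separate the groups.

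Of 14 core and general ES cell genes, 10 reached 5 CPM in both pairs. At least 2-fold higher in both were 6 (among them Pou5f1, Sall4, Dppa4, Tdgf1 and Gdf3), where 2.89% of all measured genes were. The limit set by the 5 CPM rule holds here too. The median log2 ratio of the 10 was 1.43 in WT and 2.56 in L122A. Pou5f1, which encodes OCT4 and defines pluripotent cells, was 0.467 CPM in EGFP cells, 9.22 in WT and 70.0 in L122A with RA, and 283, 444 and 453 with LIF. In the EGFP RA library this defining ES cell marker was thus near 0, and in both Nanog libraries it was well below its LIF level. Its class difference did not pass the test (edgeR adjusted p = 0.138). Sox2 was 2.71, 5.38 and 24.1 CPM, short of 2-fold in WT. Sall4, a zinc-finger partner of OCT4, rose: it was 14.03 CPM in EGFP cells, 103 in WT and 119 in L122A with RA, a class difference of 2.99 on the log2 scale (SE 0.45, edgeR adjusted p = 0.0324). This call ended with total-count scaling and without either LIF library of a Nanog transfectant. The Nanog libraries held Sall4 near their LIF levels of 125 and 133 CPM.

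**Figure D2:**
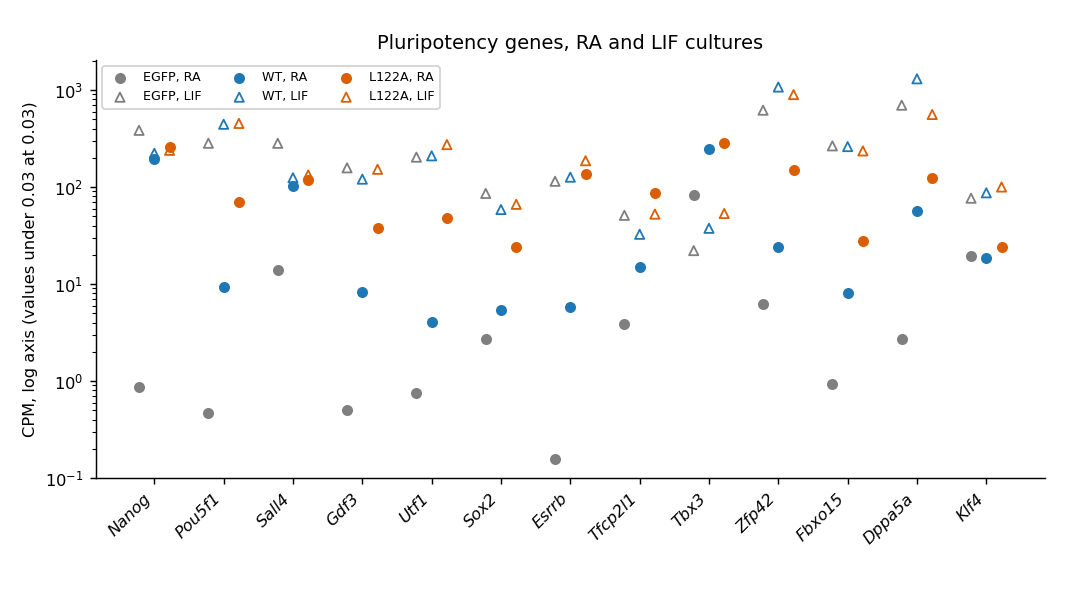
CPM on a log axis for 13 pluripotency genes in the 3 RA libraries (filled circles) and the 3 LIF libraries (open triangles), 1 point per library and no error bars. With RA the EGFP library is lowest for all but Klf4, and L122A with RA lies close to LIF for Nanog, Sall4 and Esrrb.

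In all 8 measured naive factors and all 10 measured core genes L122A stood above WT with RA. Over the 297 genes higher in both, L122A was above WT in 228 and at least 2-fold above it in 63, while WT was 2-fold above L122A in 1. Among the 653 lower in both, L122A was below WT in 546, at or under 50% of it in 185, and WT was at or under 50% of L122A in 10. The share of all measured genes with L122A above or below WT was not worked out. These counts, and those of L122A against WT per list below, are thus a description only. Taken alone, L122A also had more genes 2-fold apart from EGFP (848 higher and 1214 lower) than WT (457 and 738). The difference between WT and L122A rests on 1 library each and could not be tested.

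Alpl, L1td1 and Spp1 were among the 15 largest increases. Alpl, the alkaline phosphatase used to stain undifferentiated colonies, was 0.591, 13.2 and 34.7 CPM in EGFP, WT and L122A with RA (edgeR adjusted p = 0.0501). L1td1, an RNA-binding protein of pluripotent cells, was 0.280, 6.94 and 33.3 CPM, and Spp1, the secreted phosphoprotein osteopontin, 6.53, 124 and 443 CPM. In each L122A stood above WT, and none of these 3 passed the test. Of the 15 largest increases by the smaller of the WT and L122A ratios, 4 passed it, Nanog and 3 more. Ttll6, a tubulin polyglutamylase, was 0.0622, 6.25 and 11.1 CPM from 2, 200 and 396 counts. That is 101-fold for WT (interval 27.5 to 836) and 178-fold for L122A (49.1 to 1479), and it rose by 7.02 on the log2 scale (SE 0.82, edgeR adjusted p = 0.0187). Slc51a, an organic solute transporter subunit, was 0.373, 8.16 and 23.2 CPM, and St8sia1, a ganglioside sialyltransferase, 0.435, 8.88 and 10.7 CPM. Both rose (edgeR adjusted p = 0.0405 and 0.0324). With total-count scaling, or without either Nanog LIF library, neither passed, and Slc51a also did not pass without the L122A RA library or without either Nanog no-LIF library. The 15 also held Calcoco2, 2210409E12Rik, Plet1, Arl14epl, Fbp2, Esrrb, Dppa5a and Pou5f1.

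Of 10 listed germ cell genes, several of which ES cells also express, 7 reached 5 CPM in both pairs. At least 2-fold higher in both were 4, where 2.89% of all measured genes were, and none was lower. Dazl, Prdm1 and Taf7l were under 5 CPM in EGFP, so they were measured only through the Nanog libraries and could not be lower. Dazl, an RNA-binding protein of germ cells, was 2.39, 12.01 and 37.5 CPM. Prdm1, a repressor needed for primordial germ cells, was 2.15, 14.3 and 30.9 CPM. Stra8, a meiotic gatekeeper that RA induces, was 12.5, 32.4 and 52.9 CPM, and Taf7l, a germ cell TFIID subunit, 2.71, 7.94 and 11.7 CPM. The class difference passed the edgeR test for none of the 10 (6 at an unadjusted p below 0.05), and DESeq2 called 4 higher. Among 9 enzymes of DNA methylation and demethylation, 2 of 7 measured were higher in both, where 2.89% of all measured genes were. Dnmt3b, a de novo methyltransferase, was 4.95, 23.4 and 51.2 CPM, and Tet2, which oxidises methylcytosine, 58.2, 161 and 254 CPM. Dnmt3b too was under 5 CPM in EGFP, so it was measured only through the Nanog libraries and could not be lower. None of the 9 passed the edgeR test (4 at an unadjusted p below 0.05, beside 2131 of all 13996 tested), and DESeq2 called 3 higher.

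Genes of the RA pathway differed in direction. Of 18 listed genes of retinoid metabolism, receptors and targets, 15 reached 5 CPM in both pairs, 3 were higher in both (Cyp26a1, Crabp2, Stra8) and 1 was lower (Crabp1). The median log2 ratios were 0.16 in WT and 0.13 in L122A, close to those of all genes. Crabp2, which delivers RA to its receptor, rose from 15.0 CPM in EGFP to 108 in WT and 91.3 in L122A, a difference of 2.74 on the log2 scale (SE 0.38, edgeR adjusted p = 0.0290). Crabp1, the carrier linked to RA breakdown, fell by 3.06 on the log2 scale (SE 0.44, edgeR adjusted p = 0.0290), from 29.2 CPM in EGFP to 2.25 in WT and 4.71 in L122A. The paralogous carriers thus went opposite ways. Both calls ended with total-count scaling and without either Nanog LIF library.

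Cyp26a1, the P450 enzyme that degrades RA, was 103 CPM in EGFP cells, 498 in WT and 481 in L122A with RA, beside 1.94, 0.443 and 0.0902 with LIF. All 3 RA libraries were far above their LIF libraries, and the class difference with RA did not pass (2.24 on the log2 scale, SE 0.60, edgeR adjusted p = 0.150). Rarb, the receptor that RA induces, was 73.6, 115 and 80.6 CPM. Rara was 43.6, 45.2 and 39.4 CPM, and Dhrs3, a retinal reductase induced by RA, 148, 166 and 137 CPM. These 3 were within 2-fold of EGFP in both Nanog libraries. Receptors bind DNA at direct repeats spaced by 5 bases (DR5), and the 250 bases before the start of Cyp26a1 and of Rarb each hold such a repeat, in capitals below (RefSeq, GRCm38.p6; the motif searched, on either strand, is a pair of hexamers in the same orientation). They are shown because the same motif stands before a gene that differed at least 4.65-fold from EGFP and one that differed by less than 2-fold. The motif was found in 0.0883% of 32851 promoter windows and in 2 of the 24 windows of the retinoid list, which come from 13 of its genes. Its presence is a description only.
Cyp26a1 (chr19:37697558-37697807, + strand): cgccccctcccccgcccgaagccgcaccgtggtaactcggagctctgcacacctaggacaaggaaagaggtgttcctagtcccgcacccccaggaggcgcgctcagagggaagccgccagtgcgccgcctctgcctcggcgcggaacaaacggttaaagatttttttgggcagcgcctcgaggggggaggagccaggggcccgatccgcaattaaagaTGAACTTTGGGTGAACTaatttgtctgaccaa
Rarb (chr14:16575477-16575726, - strand): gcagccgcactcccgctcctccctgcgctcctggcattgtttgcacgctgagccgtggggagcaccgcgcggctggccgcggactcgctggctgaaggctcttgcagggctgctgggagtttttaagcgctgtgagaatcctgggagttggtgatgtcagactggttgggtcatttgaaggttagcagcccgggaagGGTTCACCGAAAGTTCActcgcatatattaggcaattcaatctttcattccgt

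Hox genes, which RA opens from the 3′ end of each cluster, were measured in 2 lists. Of 15 genes of paralogue groups 1 to 5, 12 reached 5 CPM in both pairs, 3 were higher in both and none was lower. Hoxb1 was 1.40, 13.1 and 21.1 CPM in the 3 libraries and Hoxb5 9.11, 29.7 and 47.0. Both were ordered EGFP, WT, L122A, and their edgeR adjusted p values were 0.0630 and 0.0924. Of 24 genes of groups 6 to 13, 13 reached 5 CPM; Hoxb6 was higher in both (12.8, 30.0 and 48.6 CPM) and Hoxc13 lower in both (12.1, 3.31 and 1.93 CPM). With total-count scaling 4 of the 24 were higher in both. The edgeR test called none of either list (4 at an unadjusted p below 0.05 in each), and DESeq2 called 3 of the first list higher. The neighbours Hoxb5os, Hoxb6 and Hoxb5 on chromosome 11 were a run of adjacent genes higher in both. Hoxb5 and Hoxb6 overlap Hoxb5os, so their reads may not be separable, since no source used here states how strand was handled.

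All 12 listed smooth muscle and actin filament genes reached 5 CPM and all 12 were at least 2-fold lower in both Nanog libraries, where 6.35% of measured genes were; the median log2 ratio was -2.23 in WT and -2.95 in L122A. L122A stood below WT for each of the 12. In bulk RNA, fewer cells of a type and less RNA per cell cannot be told apart. Acta2, smooth muscle actin (chr19:34316014-34329810 in mm9, - strand), was 3604 CPM in EGFP cells, 392 in WT and 72.9 in L122A with RA, which is 9.19 times lower in WT and 49.4 times lower in L122A (edgeR adjusted p = 0.112). With LIF it was 120, 1.33 and 0.902 CPM. Acta2 was thus higher with RA than with LIF in every transfectant, and EGFP was the highest of the 3 in both cultures.

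Of the 12, 4 fell in the edgeR test (Cav1, Tpm2, Actg2 and Tpm1), and DESeq2 called 10 lower. Cav1, the coat protein of caveolae (chr6:17256335-17291452 in mm9, + strand), was 58.9 CPM in EGFP cells, 1.47 in WT and 0.673 in L122A, and fell by 5.78 on the log2 scale (SE 0.64, edgeR adjusted p = 0.0243). Tpm2, a tropomyosin, was 595, 121 and 91.1 CPM and fell by 2.49 (SE 0.27, edgeR adjusted p = 0.0145). Actg2, enteric smooth muscle actin, was 75.6, 4.03 and 2.69 CPM and fell by 4.49 (SE 0.67, edgeR adjusted p = 0.0368); this call ended with total-count scaling, without the L122A RA library and without either Nanog no-LIF library. Tpm1, named after its values were seen, was 4079, 1297 and 660 CPM (edgeR adjusted p = 0.0484), a call lost with total-count scaling and without any of the 3 LIF libraries or either Nanog no-LIF library. For each of the 4, WT lay above L122A. Tagln, an actin-binding marker of smooth muscle, was 1098, 204 and 59.8 CPM, Cnn1, calponin, 299, 52.0 and 15.5 CPM, and Myl9, a myosin light chain, 406, 90.5 and 48.9 CPM, none of which passed.

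Serum response factor binds CArG boxes, and TEAD factors bind CATTCC; both motifs are known from promoters of contractile genes. The smooth muscle list had 12 promoter windows, from 10 of its genes. CATTCC on either strand was found in 4 of these 12 windows (Acta2, Cald1, Lmod1 and Tpm1) and in 12.6% of all 32851 windows. A CArG box, searched without mismatch as CCWWWWWWGG (W is A or T), was found in 2 of the 12 (Cnn2 and Myl9) and in 1.47% of all. Near matches, such as ccctatatgg and ccttgtttgg in the Acta2 window, were not counted, so a window without a match may still hold a CArG-like element. Over the windows of all genes lower in both, the shares were 14.97% for CATTCC and 3.14% for the CArG box, and over those of genes higher in both 12.3% and 2.53%. The windows of Acta2 and Myl9 are shown, with the match in capitals, since these genes stood among those lower in both. In Acta2 it spans positions -146 to -141 before the start and in Myl9 positions -161 to -152 (RefSeq, GRCm38.p6).
Acta2 (chr19:34255374-34255623, - strand): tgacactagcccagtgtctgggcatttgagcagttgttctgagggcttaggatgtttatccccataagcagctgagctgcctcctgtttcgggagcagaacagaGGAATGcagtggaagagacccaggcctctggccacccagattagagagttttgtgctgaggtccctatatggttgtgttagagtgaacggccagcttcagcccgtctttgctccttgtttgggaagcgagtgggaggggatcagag
Myl9 (chr2:156775214-156775463, + strand): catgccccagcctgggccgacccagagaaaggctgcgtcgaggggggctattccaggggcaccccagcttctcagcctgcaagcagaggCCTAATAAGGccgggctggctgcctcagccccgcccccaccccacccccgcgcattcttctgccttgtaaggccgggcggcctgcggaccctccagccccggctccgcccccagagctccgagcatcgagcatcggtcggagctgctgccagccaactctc

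Of 14 fibrous collagens and matrix genes, 12 reached 5 CPM in both pairs. At least 2-fold lower in both were 10, where 6.35% of all measured genes were, and none was higher. In the edgeR test 4 fell, and DESeq2 called 6 lower. Their median log2 ratio was -2.53 in WT and -4.18 in L122A. Tnc, the adhesion-modulating matrix protein tenascin C (chr4:63620819-63707850 in mm9, - strand), was 316 CPM in EGFP cells, 6.47 in WT and 3.98 in L122A, which is 48.9 times lower in WT (interval 42.6 to 56.3) and 79.4 times lower in L122A (67.3 to 94.4). It fell by 5.92 on the log2 scale (SE 0.35, edgeR adjusted p = 0.00146), the smallest p among the decreases named here. Col3a1, a fibrillar collagen chain, was 139, 13.6 and 6.90 CPM and fell by 3.76 (SE 0.48, edgeR adjusted p = 0.0243). Col1a1, the main chain of type I collagen, was 172, 17.2 and 5.10 CPM and fell by 3.95 (SE 0.62, edgeR adjusted p = 0.0469). Both calls ended with total-count scaling, and that of Col1a1 also without the LIF or no-LIF library of either Nanog transfectant. Ccn2, a secreted matrix-associated protein and known TEAD target, also fell (205, 41.2 and 37.6 CPM, edgeR adjusted p = 0.0499; named after its values were seen), a call lost with total-count scaling, with limma, without any of the 3 LIF libraries and without the L122A RA library. Fn1, fibronectin, was 809, 223 and 248 CPM, the only measured member with L122A above WT.

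Fibroblast markers were listed as a check for feeder cells. Their summed level was 266 CPM in EGFP cells, 41.5 in WT and 15.6 in L122A with RA. Of the 9 listed, 5 reached 5 CPM in both pairs. At least 2-fold lower in both were 4 (Dcn, Col1a1, Col1a2 and Postn), where 6.35% of all measured genes were. Of these 4, Col1a1, Col1a2 and Postn are also in the matrix list. The median log2 ratio of the 5 was -2.15 in WT and -4.50 in L122A. Lum and Fap were at 0 in all 3 libraries, which allows up to 3 counts in each, and Pdgfrb was 9.61, 8.51 and 7.74 CPM. The part of other cells in the matrix and contractile results was not tested.

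**Figure D3:**
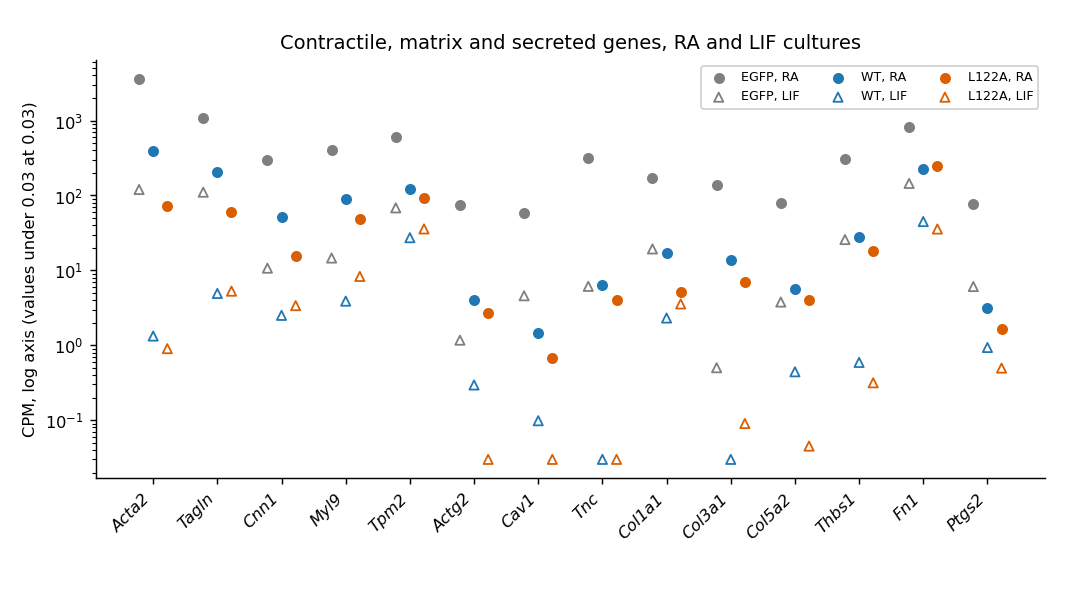
CPM on a log axis for 14 contractile, matrix and secreted genes in the RA (filled circles) and LIF (open triangles) libraries, 1 point per library and no error bars. Within both cultures EGFP is the highest library for all 14, and all 14 are higher with RA than with LIF in EGFP.

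The 15 largest decreases held Tnc, Cav1 and Ptgs2. Ptgs2, the inducible cyclooxygenase, was 76.0, 3.16 and 1.63 CPM and fell by 4.99 on the log2 scale (SE 0.50, edgeR adjusted p = 0.0145). WT stood above L122A. Gzme, a granzyme, had 161 counts in EGFP and 0 in both Nanog libraries, which puts it at least 53.4-fold lower in WT and 59.5-fold lower in L122A against a floor of 3 counts per library. Pappa, a protease that cleaves IGF-binding proteins, had 209, 2 and 0 counts: the ratio of EGFP to WT was 104 (interval 28.4 to 864) and L122A was at least 77.3-fold lower. Col4a6, a basement membrane collagen chain, had 225, 2 and 1 counts, with ratios of 112 (30.6 to 930) and 250 (44.3 to 9902). These 3 were under the expression filter of the test, as were 39 of the 653. The 15 also held Serpinb6b, Rgs4, Olr1, Nkain3, Serpinb9b, Thbd, Tm4sf1 and Fbln2. Rgs4, a regulator of G protein signalling, was 55.6, 1.53 and 0.280 CPM and missed the threshold (edgeR adjusted p = 0.0506).

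Of 12 neural genes, 6 reached 5 CPM in both pairs, 3 were lower in both and none higher. Nes, the intermediate filament of neural progenitors and of other migratory cells, was 186, 54.5 and 38.2 CPM in the 3 libraries and fell by 2.01 on the log2 scale (SE 0.29, edgeR adjusted p = 0.0290). Tubb3, neuronal tubulin, was 15.0, 2.38 and 3.03 CPM and fell by 2.47 (SE 0.32, edgeR adjusted p = 0.0243). Both calls ended with total-count scaling and without either Nanog LIF library, and that of Nes without the L122A RA library. The earlier neural factor Pax6 was 6.25, 7.04 and 9.34 CPM, Sox1 was at 0 in EGFP and WT and 0.168 in L122A, and Neurog1 was at 0 in all 3.

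Of 12 primitive streak and mesoderm genes only Wnt3 (14.9, 2.44 and 1.46 CPM) and Kdr (6.38, 2.50 and 1.51 CPM) reached 5 CPM in both pairs, and both were lower in both. None of the 12 passed the edgeR test (1 at an unadjusted p below 0.05, called lower by DESeq2). Brachyury (T) was at most 0.196 CPM in any RA library. Among 11 trophectoderm genes, 6 were measured and 3 were lower in both, all of them simple epithelial keratins that other epithelia share. Krt18 was 544, 201 and 47.6 CPM, Krt8 175, 70.0 and 18.5, and Krt7 7.09, 0.938 and 0.393. The trophectoderm factor Cdx2 was at 0 in EGFP and WT and 0.308 CPM in L122A, and none of the list passed the edgeR test (2 at an unadjusted p below 0.05, both called lower by DESeq2).

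Sox7, an endoderm and endothelial SOX factor, rose: it was 1.62 CPM in EGFP cells, 25.7 in WT and 21.8 in L122A, a difference of 3.87 on the log2 scale (SE 0.51, edgeR adjusted p = 0.0243), lost without either Nanog LIF library. Lama1, a laminin chain of parietal endoderm, was 20.5, 209 and 67.4 CPM. These were the only members of the 10 listed factors and the 17 listed products at least 2-fold higher in both; Fst, a follistatin, and Thbd, thrombomodulin, were lower in both. Others were higher in WT alone. Gata4 was 5.66, 21.8 and 4.68 CPM, Foxa2, an endoderm pioneer factor, 1.24, 8.51 and 1.46, and Cubn, a visceral endoderm endocytic receptor, 6.10, 69.9 and 4.32. Gata6, the earliest primitive endoderm factor, was 33.9, 26.9 and 8.86 CPM and so highest in EGFP. Of the 6 measured factors and the 12 measured products, L122A was above WT in none. These single-library differences were not tested.

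Of 12 epithelial and mesenchymal genes 9 were measured, 2 were higher in both and 2 lower. Epcam, an epithelial adhesion molecule of ES cells, rose from 5.82 CPM in EGFP to 31.8 in WT and 32.0 in L122A, a difference of 2.45 on the log2 scale (SE 0.36, edgeR adjusted p = 0.0290, lost with total-count scaling and without either Nanog LIF library). Ocln, a tight junction protein, was 2.52, 8.32 and 8.50 CPM. Zeb2, a repressor of epithelial genes, was 96.5, 47.0 and 21.9 CPM, and Cldn6, a claudin, 39.3, 19.4 and 8.64. With total-count scaling neither of the last pair was 2-fold lower in both. Cdh1, E-cadherin, was 124, 209 and 359 CPM, and Cdh2, N-cadherin, 180, 76.5 and 65.6.

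In the lists of signalling and formative genes edgeR called none, and limma none. From 2 to 8 per list had an unadjusted edgeR p below 0.05, beside 2131 of all 13996 tested. DESeq2 called 1 LIF and STAT3 gene higher, 5 Nodal pathway genes higher and 1 lower, 1 Wnt gene lower, and 1 formative gene higher and 2 lower, and no BMP or FGF and ERK gene. Of 12 LIF receptor and STAT3 genes, 9 were measured and none of these was 2-fold apart in both, for example Stat3 at 109, 105 and 83.7 CPM, in a culture that had no LIF. Gbx2, listed but not among the 9 because WT was under 5 CPM, was 0.809, 4.85 and 6.84 CPM. It was 5.99 times higher in WT and 8.46 times higher in L122A than in EGFP (edgeR adjusted p = 0.113). Of 14 Wnt ligands and targets, 6 were measured and 4 were lower in both (Sfrp1, Wnt5a, Wnt11 and Axin2); Wnt5a, a non-canonical ligand, was 28.5, 9.16 and 1.63 CPM. Nodal genes had 1 member higher (Tdgf1, the co-receptor Cripto, 2.74, 8.72 and 9.70 CPM) and 2 lower (among them Smad3) of 6 measured, and BMP genes 1 lower (Msx2, 93.6, 41.3 and 39.3 CPM) of 10. Of 11 measured FGF and ERK genes, Etv5 alone was higher in both, at 10.8, 25.8 and 150 CPM. In the formative and primed list, Dnmt3b was higher and Lef1 and Cdh2 lower in both, of 6 measured. No endothelial or blood gene reached 5 CPM in both pairs, and the embryonic globins Hba-x and Hbb-bh1 were at 0 in all 3 libraries.

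Among growth inhibitors, Cdkn2b, the CDK4 and CDK6 inhibitor p15, fell from 63.0 CPM in EGFP to 9.41 in WT and 3.73 in L122A, by 3.26 on the log2 scale (SE 0.49, edgeR adjusted p = 0.0316, lost with total-count scaling and without the LIF or no-LIF libraries of either Nanog transfectant). Cdkn1a, the p53 target p21, was 275, 101 and 98.5 CPM (edgeR adjusted p = 0.0698). These were the 2 of 11 measured CDK inhibitors and p53 targets lower in both. Of 15 cell cycle genes none was higher by the rule, none passed the edgeR test (8 at an unadjusted p below 0.05; DESeq2 called 2 higher and 1 lower), and the D cyclins Ccnd1 (29.3, 5.22 and 13.04 CPM) and Ccnd2 (15.9, 5.13 and 1.51 CPM) were lower. Mki67, the proliferation antigen, was 121.7, 237 and 317 CPM, and Top2a, a mitotic topoisomerase, 390, 579 and 707. L122A stood above WT in 14 of the 15.

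**Figure D4:**
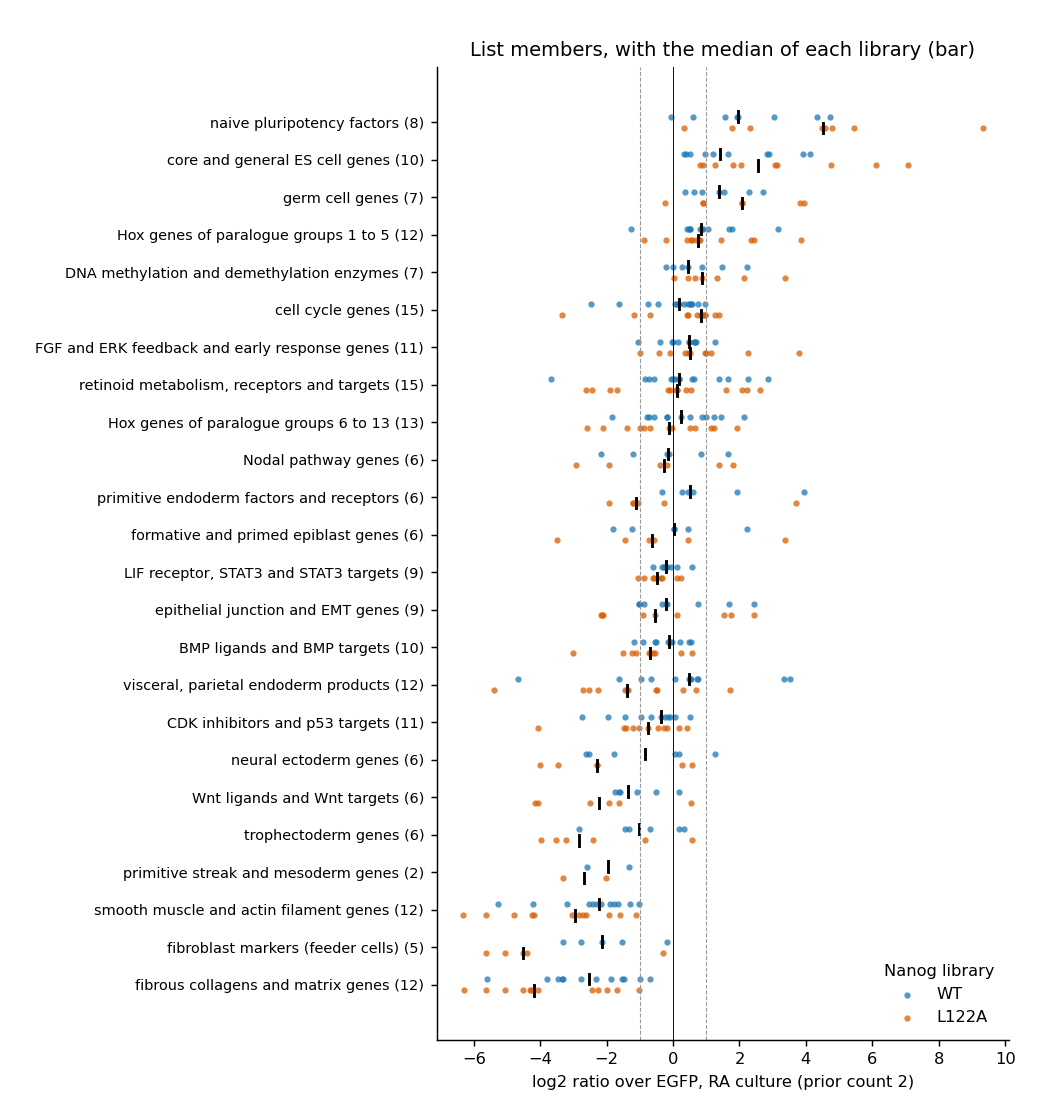
Each point is the log2 ratio over EGFP with RA of 1 list member that reached 5 CPM in both pairs, for WT and L122A; black bars are medians, dashed lines mark 2-fold, and the number measured stands in brackets. Naive and core pluripotency lists lie highest, and contractile, fibroblast and matrix lists lowest.

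The RA gene sets were then read in the cultures without RA, whose libraries the rule did not use. The column name of the LIF libraries is in no label and was assigned to LIF by elimination. Of the 653 genes lower with RA, 343 reached 5 CPM in both pairs with LIF and 100 of them (29.2%) were also at least 2-fold lower in both Nanog libraries there, against 3.26% of all measured genes. Without LIF it was 206 of 406 (50.7%), against 6.6%. Of the 297 genes higher with RA, 18 of 228 (7.89%) were higher in both with LIF, against 2.08%, and 64 of 224 (28.6%) without LIF, against 5.07%. In the opposite direction stood 9 of 343 (LIF) and 5 of 406 (no LIF) of the lower set, where 2.08% and 5.07% of all measured genes were higher. Of the higher set it was 12 of 228 and 17 of 224, where 3.26% and 6.6% of all were lower. The median log2 ratios of the higher set with LIF were 0.000222 in WT and 0.09 in L122A, beside -0.03 and -0.01 for all measured genes. Without LIF they were 0.58 and 0.65. Those of the lower set were -0.68 and -0.65 with LIF and -1.18 and -1.46 without. Tnc was 6.12 CPM in EGFP with LIF and 0 in both Nanog libraries, and Thbs1, thrombospondin, 25.8, 0.590 and 0.316.

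**Figure D5:**
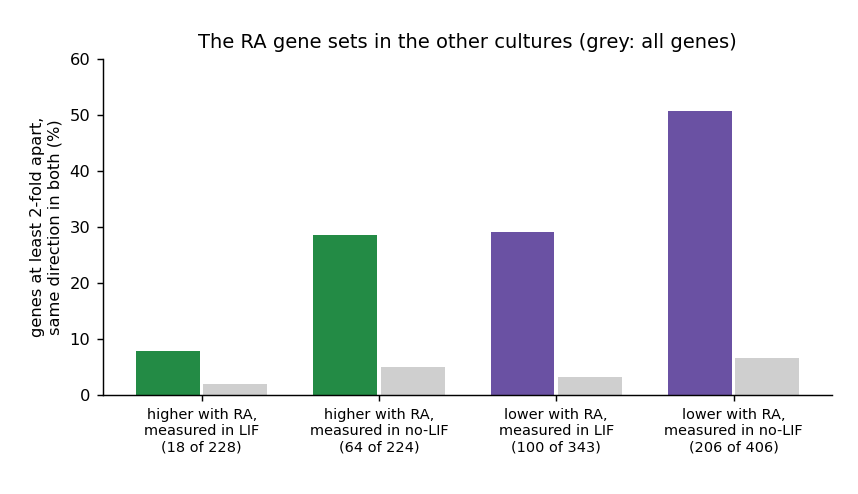
Bars give the percentage of measured genes at least 2-fold apart in the same direction in both Nanog libraries, for the RA gene sets (green higher, purple lower) and for all measured genes (grey), in the LIF and no-LIF cultures. The lower set reaches 29.2% with LIF and 50.7% without, the higher set 7.89% and 28.6%.

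Whether the class difference was another with RA than in a culture without it was tested by the interaction term of the same edgeR model. Against LIF 1 gene passed (0.00714% upward and 0% downward), Nanog, with a change of the difference of 8.75 on the log2 scale (SE 0.50, adjusted p = 0.000498). Against the culture without LIF 6 passed (0.0357% upward and 0.00714% downward): Nanog, Nt5e, Crabp2, Mpped2 and Zfp703 upward and Tubb3 downward. The calls of Nanog held in all 12 alternatives of each test, and with 1 library left out the 6 became from 1 to 84. Nt5e was lost without the L122A no-LIF library, as were the other 4. Crabp2, Mpped2, Tubb3 and Zfp703 were also lost with total-count scaling and without either Nanog LIF library, Mpped2, Tubb3 and Zfp703 with RLE factors, Tubb3 without the EGFP LIF library, and Zfp703 with limma and without the WT no-LIF library. Mpped2, a metallophosphoesterase, was 12.4, 111 and 144 CPM with RA and 8.85, 5.38 and 7.44 without LIF. It also rose with RA itself (3.36 on the log2 scale, SE 0.36, edgeR adjusted p = 0.0145). Nt5e, the ectonucleotidase CD73, was 2.92, 9.22 and 6.84 CPM with RA and 64.6, 1.51 and 1.52 without LIF. Tubb3 was lower in the Nanog libraries with RA but 6.33, 16.7 and 19.5 CPM without LIF. Unadjusted p was below 0.05 for 1554 genes against LIF and 1291 against no LIF.

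At the edge of the rule, Ralgps1 was just inside the higher set (6.50, 13.01 and 16.7 CPM) and Ints6l just outside it (7.22, 18.8 and 14.4). Ecm1 was just inside the lower set (1090, 545 and 71.4 CPM) and Efs just outside (12.8, 6.41 and 5.21). Neighbouring genes shared a set in several places: Gdf3, Nanog and Slc2a3 on chromosome 6 were a run of 3 higher in both, and Krt7, Krt8 and Krt18 on chromosome 15 a run of 3 lower. In all, 29 of 10262 adjacent pairs of measured genes (0.283%) were both in the higher set and 110 (1.07%) both in the lower set. Adjacent means next to each other among measured genes, so unmeasured genes may lie between them. Some pairs overlap and may share reads, such as Coil with 2210409E12Rik. The share expected for sets of this size was not worked out, so these counts are a description only. In the file's coordinates Tubb3 lies within the listed span of Usp10, Tnc overlaps 8030451A03Rik, Cav1 overlaps Gm15581, St8sia1 overlaps Gm7457 and Mpped2 overlaps SCARNA4, so reads of these pairs may not be separable.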

How the data were processed

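RNA of 9 libraries was sequenced. The submitters' processing notes name the aligner TopHat2 2.0.11 and the genome build mm9. How reads were counted, with which program, strand setting and filters, is not given in the sources used here. Per the file headers, the authors deposited a raw count for each gene, without normalization. The deposited FPKM, normalized per the file headers, equalled count over length over total within 1% for 100% of genes above 5 FPKM. Start positions in the file count from 0 and are printed from 1. The file lists 33495 genes, of which 28692 matched a symbol in a newer annotation.

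CPM used trimmed-mean (TMM) factors from 0.810 to 1.255. Intervals of ratios are exact 95% Poisson. The 13996 genes that held 1 CPM or more in 3 or more libraries were tested with edgeR 4.0.16 in R 4.3.3 (quasi-likelihood, robust, 3 residual degrees of freedom, coefficient of variation 0.287), with Benjamini-Hochberg adjustment. The SE is the absolute log2 change over the square root of F. Scripts were tested on simulated data. Other tools were DESeq2 1.42.0, limma 3.58.1, matplotlib 3.10.9, scipy 1.17.1, pandas 2.3.3, numpy 2.4.6 and Python 3.11.15.

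Alternatives were RLE factors, total counts, other minimum CPM (1 and 10), a prior count of 2, no filter, DESeq2, limma on log2 FPKM (pseudocount 1), the RA libraries alone, and leaving out each library. Log2 ratios in medians and figures use a prior count of 2; a prior count of 0.5 for the named genes was added after seeing the data. Named are Nanog; the 15 largest increases and decreases by the smaller of both ratios; and, per list, up to 4 members each way that pass the fold rule and up to 2 that pass the test, otherwise the member with the largest mean ratio. The 25 lists (313 genes, all matched) and the members were chosen with earlier results of these data known. No protein sequence is printed, and some genes that this rule names are left out.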

Additional observations from a re-analysis of the deposited data

Results flagged for a closer look

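The change of the Nanog minus EGFP difference between RA and another culture passed the edgeR interaction test (Benjamini-Hochberg adjusted p below 0.05) for these genes. For Nanog it was 8.75 on the log2 scale against LIF (SE 0.50, adjusted p = 0.000498) and 8.98 against no LIF (SE 0.50, adjusted p = 0.000421), and in both other cultures EGFP held the most Nanog. Against no LIF it was 6.87 for Nt5e (SE 0.63, adjusted p = 0.0146), where EGFP was highest without LIF and lowest with RA. It was 4.90 for Crabp2 (SE 0.51, adjusted p = 0.0285) and 3.82 for Mpped2 (SE 0.46, adjusted p = 0.0472). For Zfp703, a transcriptional corepressor that was 33.6, 54.4 and 57.1 CPM with RA and 3.09, 0.0408 and 0.101 without LIF in EGFP, WT and L122A, it was 6.14 (SE 0.75, adjusted p = 0.0472). For Tubb3 it was -3.98 (SE 0.49, adjusted p = 0.0472). Of the 12 alternatives, Nanog passed in all against either culture, Nt5e in 11, Crabp2 in 8, Mpped2 in 7, Tubb3 in 6 and Zfp703 in 5. The losses of Crabp2, Mpped2, Tubb3 and Zfp703 included total-count scaling and leaving out either Nanog LIF library, and those of all 5 genes other than Nanog included leaving out the L122A no-LIF library.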

How the results depend on the processing

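No paired analysis was possible because each group has 1 library, so no replicate number pairs libraries; culture is already a term of the test. Genes higher by the fold rule were 447 with total counts, 704 with a minimum of 1 CPM, 184 with 10 CPM, and 457 to 848 with 1 Nanog library left out; genes lower were 738 to 1214 with 1 left out, and otherwise stayed within 1.5 times of 653. Genes that rose in the test were 5 with total counts, 669 without a filter, 430 with DESeq2, 95 with limma on log2 FPKM, 0 with the 3 RA libraries alone (2066 at an unadjusted p below 0.05) and from 4 to 369 with 1 library left out; genes that fell were 10, 653, 418, 204, 0 and from 15 to 286. Without WT RA 369 rose and 286 fell, and without L122A RA 52 and 52. The change of the difference against LIF passed for 684 genes without a filter, 264 with DESeq2, 16 with limma and from 1 to 166 with 1 library left out. Against no LIF it passed for 3 with RLE factors, 2 with total counts, 634 without a filter, 251 with DESeq2, 50 with limma and from 1 to 84 with 1 left out. The causes were not tested. Of the 124 called genes, 124 were also called with DESeq2, with RLE factors and without a filter, 108 with limma, 15 with total counts, 123 without WT RA, 59 without L122A RA and 19 without either Nanog LIF library. Among the genes named, Nanog, Ttll6, Tnc, Cav1, Ptgs2, Tpm2 and Mpped2 passed in 13 of 14 alternatives, all but the RA libraries alone. Depth limits genes near 3 counts.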
